A study of Mus musculus with 24 samples.

Results

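The 52 genes described here are nuclear genes for subunits of the 5 complexes of oxidative phosphorylation, together with cytochrome c. They were taken from a list of symbols and matched to array probes through each probe's accession; Atp5f1 was matched under its newer symbol Atp5pb. All 52 were measured, among 21056 features in all, of which 13020 were named genes and 8036 were probes without a gene name. By complex they comprised 19 genes of complex I, 4 of complex II, 7 of complex III, 1 for cytochrome c, 11 of complex IV and 10 of complex V.

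The tissue was epididymal white fat, a visceral depot, from 24 male C57BL/6JRcc mice aged 28 or 29 weeks. Over 18 weeks, 12 mice ate a semi-synthetic diet whose vitamin B3 was nicotinamide riboside (NR) at 30 mg per kg (Ctrl NR), and 12 ate it with 0 mg (No NR). Both diets held low but sufficient tryptophan, another precursor of NAD. Both groups had first been accustomed to Ctrl NR, and all mice were fasted, refed for a short time and then killed. All mice were housed singly, and each is 1 replicate.

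Each mouse had its own 2-colour array, with its RNA in Cy5 and a common fat-pad reference pool in Cy3 that also held other dietary groups and females. A value is the log2 ratio of the mouse over this pool, so 0 means the level of the pool, and levels of different genes cannot be set against each other. The arrays lay on 5 slides, each scanned as 1 batch and each holding both diets. Slides 1 to 5 had 2, 2, 2, 4 and 2 mice on Ctrl NR beside 1, 3, 3, 2 and 3 on No NR. The share of spots well above background ran from 34.5% to 50.7% per array, with a median of 44.7%. Of the 52 genes, 48 were well above background on all 24 arrays and 0 had a saturated spot. In all, 6 of their values were lost to spots marked as outliers, and the fit left those mice out for that gene. Cox8a lacked 2 Ctrl NR mice, Cox4i1 lacked 1 Ctrl NR mouse, Cox6a1 lacked 1 No NR mouse and Atp5b lacked 1 mouse of each diet. Outlier spots did not count as above background, so these are the genes not counted as above it on all 24 arrays. Precision is limited by how many arrays there are: over the members, the median standard error of a diet difference was 0.0885.

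Oxidative phosphorylation takes electrons from NADH at complex I and from succinate at complex II, and passes them through complex III and cytochrome c to complex IV, where oxygen is reduced. The protons pumped on the way drive ATP synthase, complex V. NAD, the product of vitamin B3, is the electron carrier that complex I turns over. White fat cells hold fewer mitochondria than brown fat cells, and their mitochondria supply the precursors and energy for lipid synthesis after a meal. A small set of subunits is encoded in the mitochondrial genome; those 13 genes are not analysed here, because their array transcripts are not named by the table used.

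Nuclear respiratory chain genes are known for promoters bound by a few shared factors, among them NRF1, GABPA (also called NRF2), YY1 and the estrogen-related receptor ERR alpha. RefSeq promoters (GRCm38.p6, 250 bases before to 50 after the start) matched 41 of the 52 genes. The NRF1 letters GCGCANGCG, read on either strand, occurred in 12 of these 41 (29.3%) and in 7.03% of the promoters of all 27025 genes. The YY1 letters AAGATGGCG occurred in 4 of 41 (9.76%, all genes 1.64%). The GABPA letters CCGGAAGT occurred in 4 of 41 (9.76%, all genes 4.31%). The ERR alpha letters AAGGTCA occurred in 2 of 41 (4.88%, all genes 5.38%). At least 1 of these 4 motifs was found in 19 of 41 (46.3%, all genes 16.8%). These are matches of letters and describe no binding; NRF1 and YY1 letters were the ones whose shares lay furthest above those of all genes.

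The following stretches upstream of the start show 1 member for each motif and, for NRF1, a member each of cytochrome c, complex II and complex IV; the motif is in capitals and each is written 5′ to 3′ on the strand of its gene. All 6 genes lie on the minus strand.
Cycs (NRF1, reverse letters, chr6:50566606-50566646): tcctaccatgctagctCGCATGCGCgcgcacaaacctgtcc
Sdha (NRF1, chr13:74350271-74350311): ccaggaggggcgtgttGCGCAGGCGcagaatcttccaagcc
Cox6a1 (NRF1, chr5:115349051-115349091): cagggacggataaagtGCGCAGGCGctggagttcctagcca
Atp5j (YY1, chr16:84835040-84835080): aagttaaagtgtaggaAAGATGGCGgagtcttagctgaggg
Uqcrh (GABPA, reverse letters, chr4:116075071-116075097): acgaggagtatgccgcACTTCCGGcca
Atp5g3 (ERR alpha, reverse letters, chr2:73911356-73911394): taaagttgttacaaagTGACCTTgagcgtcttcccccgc
The Sdha promoter held 3 NRF1 matches and that of Cox6a1 also 3, of which 2 overlap each other.

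The comparison of the diets asked how transcripts of white fat differ when vitamin B3 is withheld. No member passed the test for diet after adjustment, and neither did any other feature. The members lay slightly lower without NR as a group: 37 of 52 had a lower mean in No NR mice and 15 a higher one, with a median difference of -0.069 on the log2 scale, beside -0.0064 over all features, of which 52.4% were lower. The split depends on the scaling: with median centring in place of loess 51 of 52 were lower (median -0.25, all features -0.056), and by the authors' values 45 of 52 were lower (median -0.11, all features -0.033). Within slides 1 to 5 the members' median was -0.025, -0.065, 0.058, -0.092 and -0.11. Complex I (15 of 19 lower, median -0.095) and complex IV (9 of 11 lower, median -0.094) lay furthest from 0. Complex III had a median of -0.064 (5 of 7 lower). Complex II (median -0.0081, 2 of 4 lower) and complex V (median -0.0046, 6 of 10 lower) lay near 0.

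In the limma fit over all features, with Benjamini-Hochberg adjustment, 0 of 52 members and 0 of 21056 features had an adjusted p under 0.05. At an unadjusted p under 0.05 there were 5 of 52 members (9.62%), while 14.1% of all features met that mark, so the members' share is no higher than the background. The 5 were Uqcrc1, Cox8b, Ndufs7 and Atp5j, lower in No NR mice, and Cyc1, higher. For 0 of 52 members did the values of the diets fail to overlap, a count that was not made over all features. The count of 5 moved to 16 of 52 in the authors' value table, a share of 30.8% against 11.9% of all features there. It was 3 without Ctrl NR mouse 115 or without No NR mouse 94, and 8 without any 1 of Ctrl NR mice 117, 108 and 88 and No NR mouse 74. Of all features, 12.0% met that mark without mouse 115 and 12.7% without mouse 94. Without mice 117, 108, 88 and 74 in turn, 17.6%, 13.6%, 14.8% and 14.2% did, where 8 members are 15.4%. The member means per mouse overlapped widely: they ran from -0.22 through a median of -0.058 to 0.29 in Ctrl NR mice and from -0.25 through -0.10 to 0.072 in No NR mice. Their averages were -0.020 ± 0.143 and -0.084 ± 0.114 (SD, n = 12 each).

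**Figure D1:**
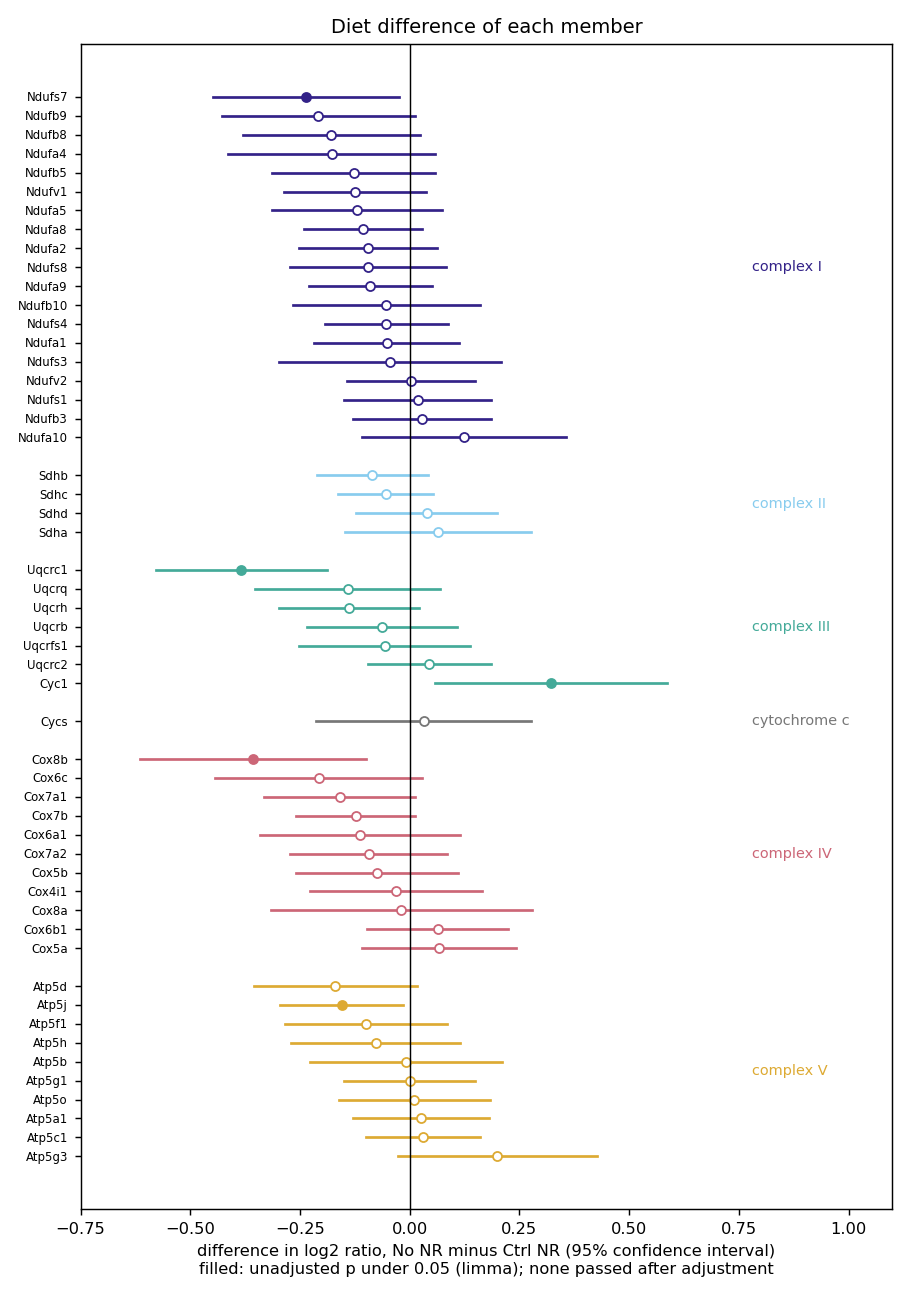
Difference in log2 ratio between the diets (No NR minus Ctrl NR) for each of the 52 genes, ordered within complexes, as points with 95% confidence intervals from the limma fit; n = 12 mice per diet less the missing spots, and filled points have an unadjusted p under 0.05. Most points lie left of 0, 37 of 52, and the 5 filled points are Ndufs7, Uqcrc1, Cyc1, Cox8b and Atp5j.

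Complex I takes electrons from NADH. Its largest difference was that of Ndufs7, a subunit of the core that carries an iron-sulfur cluster. Ndufs7 ran from -0.27 through a median of 0.13 to 0.53 in Ctrl NR mice and from -0.58 through -0.11 to 0.24 in No NR mice. The ranges overlapped, with 10 of 12 No NR mice under the Ctrl NR median. The difference was -0.24 (SE 0.103, 0.848-fold, limma adjusted p = 0.298) and was negative within each of the 5 slides, from -0.66 to -0.027. Ndufb9, an accessory subunit of the membrane arm, was next. It ran from -0.62 through -0.27 to 0.50 in Ctrl NR mice and from -0.75 through -0.45 to 0.0075 in No NR mice, with 9 of 12 No NR mice under the Ctrl NR median. Its difference was -0.21 (SE 0.107, limma adjusted p = 0.381) and was positive on slide 3 (0.043).

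The other complex I genes differed by between -0.18 and 0.12. The catalytic core was mixed: the flavoprotein subunit Ndufv1, which binds NADH, differed by -0.12 (SE 0.0793), Ndufv2 by 0.0032, the largest iron-sulfur subunit Ndufs1 by 0.018, Ndufs3 by -0.045 and Ndufs8 by -0.095. Ndufs8, a further iron-sulfur subunit, ran from -0.46 through -0.080 to 0.40 in Ctrl NR mice and from -0.53 through -0.14 to 0.19 in No NR mice. Among accessory subunits, Ndufs4 (-0.053), Ndufb8 (-0.18), Ndufa4 (-0.18), Ndufb5 (-0.13), Ndufa5 (-0.12), Ndufa8 (-0.11), Ndufa2 (-0.095), Ndufa9 (-0.089), Ndufb10 (-0.053) and Ndufa1 (-0.053) had lower means in No NR mice. Ndufb3 (0.028) and Ndufa10 (0.12) had higher ones. Ndufa4 carries a complex I name and is now counted as a subunit of complex IV. None of these passed the test, with limma adjusted p from 0.414 to 0.989. Ndufa8 had the narrowest spread in Ctrl NR mice of this group, 0.15 ± 0.0856, against 0.045 ± 0.197 in No NR mice (SD, n = 12 each), and 7 of 12 No NR mice lay under every Ctrl NR mouse. A second probe of Ndufb5 gave a difference of 0.21, opposite in sign to the probe shown, so the direction of that gene rests on the choice of probe.

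Complex II, succinate dehydrogenase, also belongs to the citric acid cycle and is wholly nuclear-encoded. Sdhb, its iron-sulfur subunit, ran from -0.0018 through 0.12 to 0.33 in Ctrl NR mice and from -0.25 through 0.028 to 0.33 in No NR mice. Its difference was -0.085 (SE 0.0617, limma adjusted p = 0.550), and a second probe of the gene gave 0.027. Sdhc, a membrane anchor, ran from -0.31 through -0.10 to 0.020 in Ctrl NR mice and from -0.33 through -0.16 to 0.033 in No NR mice. Its difference was -0.055 (SE 0.0525, limma adjusted p = 0.658), and a second probe gave -0.19 (limma unadjusted p = 0.0471). The flavoprotein Sdha (0.065) and the other anchor Sdhd (0.039) had slightly higher means in No NR mice. The 4 genes of this complex thus lay close to 0 in both directions, with overlapping mice.

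Complex III held the lowest and the highest diet difference among all members. Uqcrc1 encodes a core protein of the complex. It ran from -0.20 through 0.41 to 1.00 in Ctrl NR mice and from -0.30 through 0.0012 to 0.16 in No NR mice. All 12 No NR mice lay under the Ctrl NR median and 9 of 12 Ctrl NR mice lay above the highest No NR mouse. The Ctrl NR mice were also the more spread out, at 0.39 ± 0.311 against 0.0082 ± 0.137 (SD, n = 12 each). The difference was -0.38 (SE 0.0949, 0.766-fold, 95% confidence interval -0.58 to -0.19, limma adjusted p = 0.0827) and ranked 101 of 21056 features by p. It was negative within each slide, at -0.48, -0.15, -0.55, -0.37 and -0.59 on slides 1 to 5, and was -0.42 with slide as a block (limma adjusted p = 0.172). The gene passed the threshold where arrays were weighted by quality (-0.35, limma adjusted p = 0.0338), without Ctrl NR mouse 117 (-0.44, 0.0345) and without Ctrl NR mouse 68 (-0.42, 0.0332); over all mice left out in turn its adjusted p ran from 0.0332 to 0.151, and over all alternatives from 0.0332 to 1. A single probe carries this result.

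Cyc1, the cytochrome c1 heme subunit of the same complex, went the other way. It ran from -0.75 through -0.42 to 0.46 in Ctrl NR mice and from -0.42 through 0.065 to 0.45 in No NR mice. All 12 No NR mice lay above the Ctrl NR median, and 6 of 12 Ctrl NR mice lay under the lowest No NR mouse. The difference was 0.32 (SE 0.129, 1.25-fold, limma adjusted p = 0.263), and it was -0.0017 within slide 2 and positive on the other slides. It too rests on 1 probe. The remaining complex III genes were Uqcrq (-0.14), Uqcrh (-0.14), Uqcrb (-0.064), the Rieske iron-sulfur protein Uqcrfs1 (-0.057) and the second core protein Uqcrc2 (0.044). The core proteins Uqcrc1 and Uqcrc2, which sit together in the complex, therefore had differences of -0.38 and 0.044. No test of that contrast was run. A second probe of Uqcrq gave -0.24 (limma unadjusted p = 0.024).

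Cytochrome c, encoded by Cycs, ferries electrons from complex III to complex IV and is also released when a cell enters apoptosis. Cycs ran from -0.57 through -0.10 to 0.45 in Ctrl NR mice and from -0.61 through -0.069 to 0.59 in No NR mice. The mice of the diets covered nearly the same range. The difference was 0.032 (SE 0.119, limma adjusted p = 0.924) and turned negative under several other settings, and a second probe gave -0.091.

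**Figure D2:**
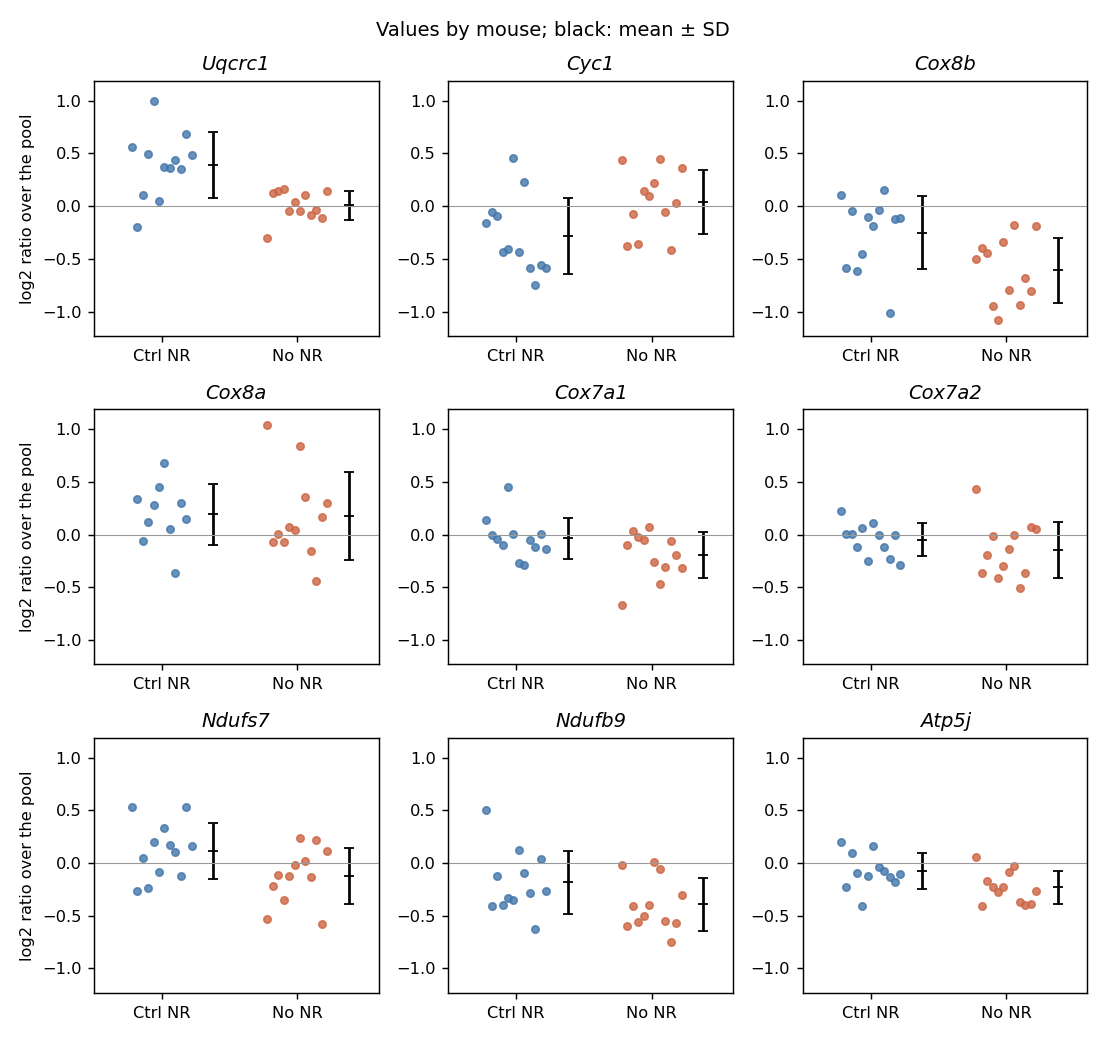
Log2 ratio over the reference pool in each mouse (points) for 9 members, by diet, with the mean ± SD in black; n = 12 mice per diet except Cox8a, with 10 Ctrl NR mice. Uqcrc1 and Cox8b lie lower and Cyc1 higher in No NR mice with overlapping ranges, while the Cox8a values of the diets lie around similar means.

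Complex IV, cytochrome c oxidase, has subunits with tissue-type isoforms: Cox7a1, Cox8b and Cox6a2 are the forms of heart and skeletal muscle, of which Cox7a1 and Cox8b are also abundant in brown fat, and Cox7a2, Cox8a and Cox6a1 are used by most tissues. Cox8b ran from -1.02 through -0.12 to 0.16 in Ctrl NR mice and from -1.08 through -0.59 to -0.18 in No NR mice. All 12 No NR mice lay under the Ctrl NR median, and 1 Ctrl NR mouse lay nearly as low as the lowest No NR mouse. The difference was -0.36 (SE 0.126, 0.781-fold, limma adjusted p = 0.198) and was negative within each of the 5 slides. It was -0.27 at equal macrophage marker mean (limma adjusted p = 0.217). The common form Cox8a ran from -0.37 through 0.22 to 0.68 in 10 Ctrl NR mice and from -0.44 through 0.059 to 1.04 in 12 No NR mice, a difference of -0.019 (SE 0.144, limma adjusted p = 0.966). Its second probe gave -0.061.

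Cox7a1 ran from -0.29 through -0.050 to 0.46 in Ctrl NR mice and from -0.66 through -0.15 to 0.069 in No NR mice. Its difference was -0.16 (SE 0.0835, limma adjusted p = 0.389), and 9 of 12 No NR mice lay under the Ctrl NR median. Cox7a2 ran from -0.28 through -0.0028 to 0.22 in Ctrl NR mice and from -0.50 through -0.16 to 0.43 in No NR mice. Its difference was -0.094 (SE 0.0870, limma adjusted p = 0.647). Both forms of this subunit thus had lower means in No NR mice, with the ranges overlapping.

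The isoforms were also set against each other within each mouse, as the log2 ratio of the tissue-type form minus that of the common form. For Cox8b against Cox8a this was -0.45 ± 0.241 in 10 Ctrl NR mice and -0.78 ± 0.468 in 12 No NR mice (SD), a shift of -0.34 (permutation p = 0.0537, 2-sided, adjusted p = 0.215 over 4 pairs). For Cox7a1 against Cox7a2 the shift was -0.066 (permutation p = 0.661, adjusted p = 0.661), and without No NR mouse 118 it was 0.029. For Cox4i2 against Cox4i1 it was -0.11 (permutation p = 0.346, adjusted p = 0.661), and for Cox6a2 against Cox6a1 0.22 (permutation p = 0.507, adjusted p = 0.661). With median centring in place of loess the Cox7a1 and Cox4i2 pairs turned to 0.024 and 0.12. No pair passed the threshold.

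Brown fat and muscle markers were measured beside these isoforms. Of 6 brown fat markers 4 were kept by the filter, 2 lower and 2 higher in No NR mice, with Ucp1 at 0.068 (SE 0.134, limma adjusted p = 0.847) and well above background on 9 arrays of each diet. Of 10 skeletal muscle markers, 3 were kept, and Ckm, Myh4 and Mylpf had no named probe that was well above background on any array. The mean log2 ratio of the 4 kept brown fat markers ran from -0.86 to -0.27 in Ctrl NR mice and from -0.88 to -0.21 in No NR mice. That of the 3 kept muscle markers ran from -0.77 to 0.29 and from -0.47 to 1.6. The part of these cells in the Cox8b values was not tested.

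The other complex IV genes differed by between -0.21 and 0.067. Cox6c, a small membrane subunit, ran from -0.51 through -0.037 to 0.59 in Ctrl NR mice and from -0.79 through -0.26 to 0.13 in No NR mice, a difference of -0.21 (SE 0.115, limma adjusted p = 0.417). Cox5a, a matrix-side subunit, ran from -0.51 through -0.22 to 0.076 in Ctrl NR mice and from -0.67 through -0.11 to 0.11 in No NR mice, a difference of 0.067 (SE 0.0851, limma adjusted p = 0.746) that turned to -0.12 with median centring. Cox7b (-0.12), Cox6a1 (-0.11), Cox5b (-0.075) and Cox4i1 (-0.032) had lower means in No NR mice, and Cox6b1 (0.063) a higher one. Cox7b was lower within each of the 5 slides.

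Complex V, ATP synthase, makes ATP at the F1 head, driven by protons that pass through the membrane ring. Atp5j, coupling factor 6 of the stalk, ran from -0.40 through -0.10 to 0.20 in Ctrl NR mice and from -0.41 through -0.24 to 0.062 in No NR mice. In 9 of 12 No NR mice it lay under the Ctrl NR median. The difference was -0.15 (SE 0.0684, 0.898-fold, limma adjusted p = 0.304) and was positive on slides 1 (0.073) and 3 (0.071). Atp5d, the delta subunit of the head, ran from -0.16 through 0.10 to 0.80 in Ctrl NR mice and from -0.29 through 0.012 to 0.31 in No NR mice. Its difference was -0.17 (SE 0.0906, limma adjusted p = 0.40) and was negative within each of the 5 slides. The other members that belong to F1 lay near 0, with Atp5a1 at 0.027, Atp5b at -0.0090 and Atp5c1 at 0.029, though a second probe of Atp5c1 gave -0.14. The ring subunit genes Atp5g1 and Atp5g3, whose mature proteins are alike, differed by -0.00024 and 0.20 (SE 0.110 for Atp5g3). The stalk genes Atp5f1 (-0.099) and Atp5h (-0.078) had lower means in No NR mice, and Atp5o lay at 0.010.

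Markers of other cells were measured beside these differences, and none passed the adjusted test for diet. Of the 28 macrophage markers kept of 30 listed (Cd68 and Clec7a had no named probe), 27 were higher in No NR mice and 4 of 28 had an unadjusted p under 0.05 (14.3%, beside 14.1% of all features). Their mean per mouse ran from -1.65 through -0.32 to 0.65 in Ctrl NR mice and from -1.06 through 0.14 to 0.61 in No NR mice. Of 12 endothelial markers, all well above background on all arrays, 9 were lower and 6 had an unadjusted p under 0.05 (50%), all lower; their mean ran from -0.34 to 0.27 in Ctrl NR mice and from -0.42 to 0.11 in No NR mice. Of 18 adipocyte markers 11 were lower, with means from -0.56 to 0.56 and from -0.43 to 0.74. Of 10 stromal progenitor markers 9 were higher (median 0.22, means from -0.93 to 0.15 in Ctrl NR mice and from -0.67 to 0.22 in No NR mice). All 7 mesothelial markers were lower (median -0.15, means from -0.90 to 0.72 and from -0.74 to 0.36). Of 8 lymphocyte markers 5 were lower (median -0.11). The 3 of 10 epididymis and testis markers that were kept were all lower (median -0.43), with means from -2.15 to 3.05 in Ctrl NR mice and from -2.57 to 1.14 in No NR mice. With the macrophage marker mean as a term in the fit, 31 of 52 members were lower in No NR mice. Their median was -0.023, beside -0.015 over all features, and Uqcrc1 was at -0.37 (limma adjusted p = 0.0812). The part of endothelial, fat, stromal, mesothelial and epididymal cells in the diet differences was not tested.

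After loess normalization, though not with median centring, the members were lower in mice with higher macrophage markers, whatever the diet. Within diets, 49 of 52 members had a negative slope on the macrophage marker mean, in a limma fit with diet and this mean as terms, and the median slope was -0.18 per log2 unit of the mean, beside 0.0070 over all features. The slope passed the test (limma, adjusted p under 0.05 over 21028 features) in 32 of 52 members, all falling (61.5%), where 10.2% of all features fell. Of the members 0 rose, where 16.1% of all features rose. In fat-pad RNA, fewer fat cells and less RNA per cell cannot be told apart. In No NR mice 4 lay at a low macrophage mean apart from the other 8, and Ctrl NR mice filled the gap.

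With each array's ratios centred on their median instead, 82.0% of all features rose with the macrophage mean, the median slope of all features was 0.31, and all 52 members rose, with a median of 0.41, which is 0.10 above that of all features. The slopes of named genes given next are from the loess fit. Without background correction, with Agilent's processed signals, with Cy5 alone and in the authors' value table the members' median slope was -0.16, -0.16, -0.16 and -0.13, and 32, 42, 25 and 24 members fell. Of all features, 12.3% fell without background correction, 18.9% with Agilent's processed signals and 12.6% with Cy5 alone. By the authors' values, 46.2% of members and 21.5% of all features fell. Apart from median centring, 20 members fell in every one of the 36 other settings where they were tested, the mice left out in turn included. Cox4i1 and Cox8a were tested in 35 of these settings. This count was not made over all features.

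**Figure D3:**
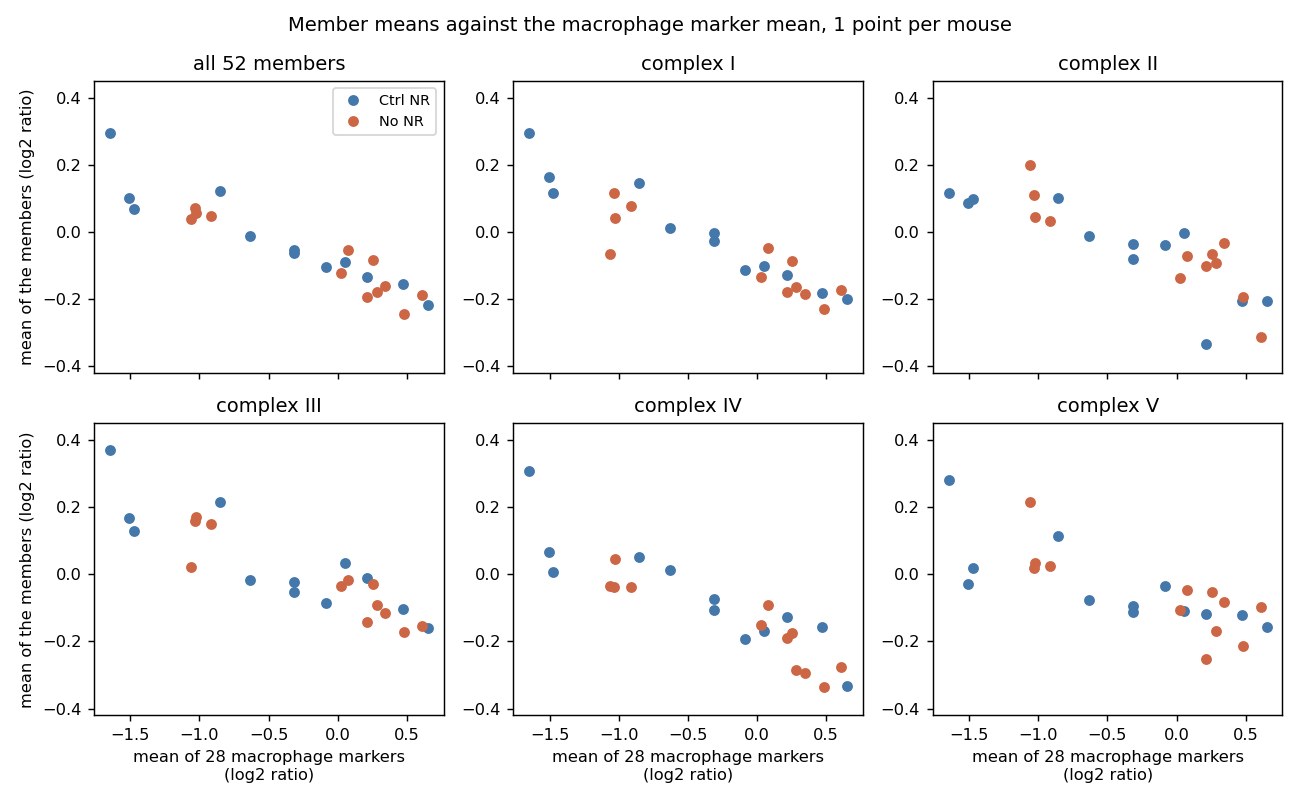
Mean log2 ratio of the members of each complex (y axis) against the mean log2 ratio of 28 macrophage markers (x axis), 1 point per mouse, coloured by diet (12 mice each). Values are after loess; with median centring the direction turns. All 6 panels fall from left to right in both diets; over all 52 members Pearson's r within diets is -0.93.

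By complex, the slope passed, falling, in 11 of 19 genes of complex I (57.9%) and 3 of 4 of complex II (75%). It did so in 5 of 7 genes of complex III (71.4%) and for cytochrome c. It also did so in 7 of 11 of complex IV (63.6%) and 5 of 10 of complex V (50%), where 10.2% of all features fell. For Sdhb, 1 of the 3 in complex II, the direction depends on the probe: the one shown had a slope of -0.12 and its second probe 0.017. The member mean and the macrophage mean had r = -0.93 and rho = -0.90 over 24 mice with diet means removed. The points share the arrays and their normalization, so this is a description. Among Ctrl NR mice it was -0.93 and among No NR mice -0.94, and it was -0.93 without the 2 mice farthest out (Ctrl NR 115 and Ctrl NR 95), and -0.93 with slide means also removed. Complex I (r = -0.92), complex IV (-0.89) and complex III (-0.88) had values further from 0 than complex V (-0.77). With the adipocyte marker mean the members had r = 0.88. Of the 18 adipocyte markers 15 fell with the macrophage mean (83.3%, beside 10.2% of all features). Their median slope was -0.54, steeper than the median of the members, with Adipoq at -0.69 and Plin1 at -0.52. The slopes of these markers are given after loess only.

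The steepest members were Cox8a at -0.43 (SE 0.0704, limma adjusted p = 2.83e-05), Ndufb9 at -0.36 (SE 0.0375, limma adjusted p = 1.19e-08) and Cox6c at -0.33 (SE 0.0525, limma adjusted p = 1.14e-05). The second probe of Cox8a gave -0.40. Ndufb9 also followed the mean of the other members most closely (r = 0.91). Cox6a1 (-0.33), Ndufb8 (-0.30), Ndufb10 (-0.29) and Cox8b (-0.28) followed, and then Atp5b of complex V and Ndufa4 (both -0.27).

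The flattest were Ndufa8 at -0.024 (SE 0.0476, 95% confidence interval -0.12 to 0.073), Cox5a at -0.046 (SE 0.0607) and Ndufs8 at 0.052 (SE 0.0618). Uqcrc1 (-0.056) and Atp5d (-0.055) were close to these. Uqcrc1, the member with the largest diet difference, was thus among those that followed the macrophage mean least. Cox7a1 at 0.12 (SE 0.0555, limma adjusted p = 0.101), Atp5g1 at 0.073 and Ndufs8 were the 3 members with a positive slope. Cox7a1 rose past the threshold in 1 of the 36 other settings, that without Ctrl NR mouse 115. Its partner Cox7a2 fell, at -0.18 (limma adjusted p = 0.00893), so the isoforms of this subunit had slopes of opposite sign; the difference between them was not tested.

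Whether the slope differed between the diets was tested with the product of diet and marker mean. In limma 0 of 52 members passed (lowest adjusted p = 0.413), and 0 of 21028 features did. At an unadjusted p under 0.05 there were 11 of 52 members, where 10.3% of all features met that mark. They split in direction: Ndufb10 had a difference of -0.26 and Ndufb5 one of 0.32.

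**Figure D4:**
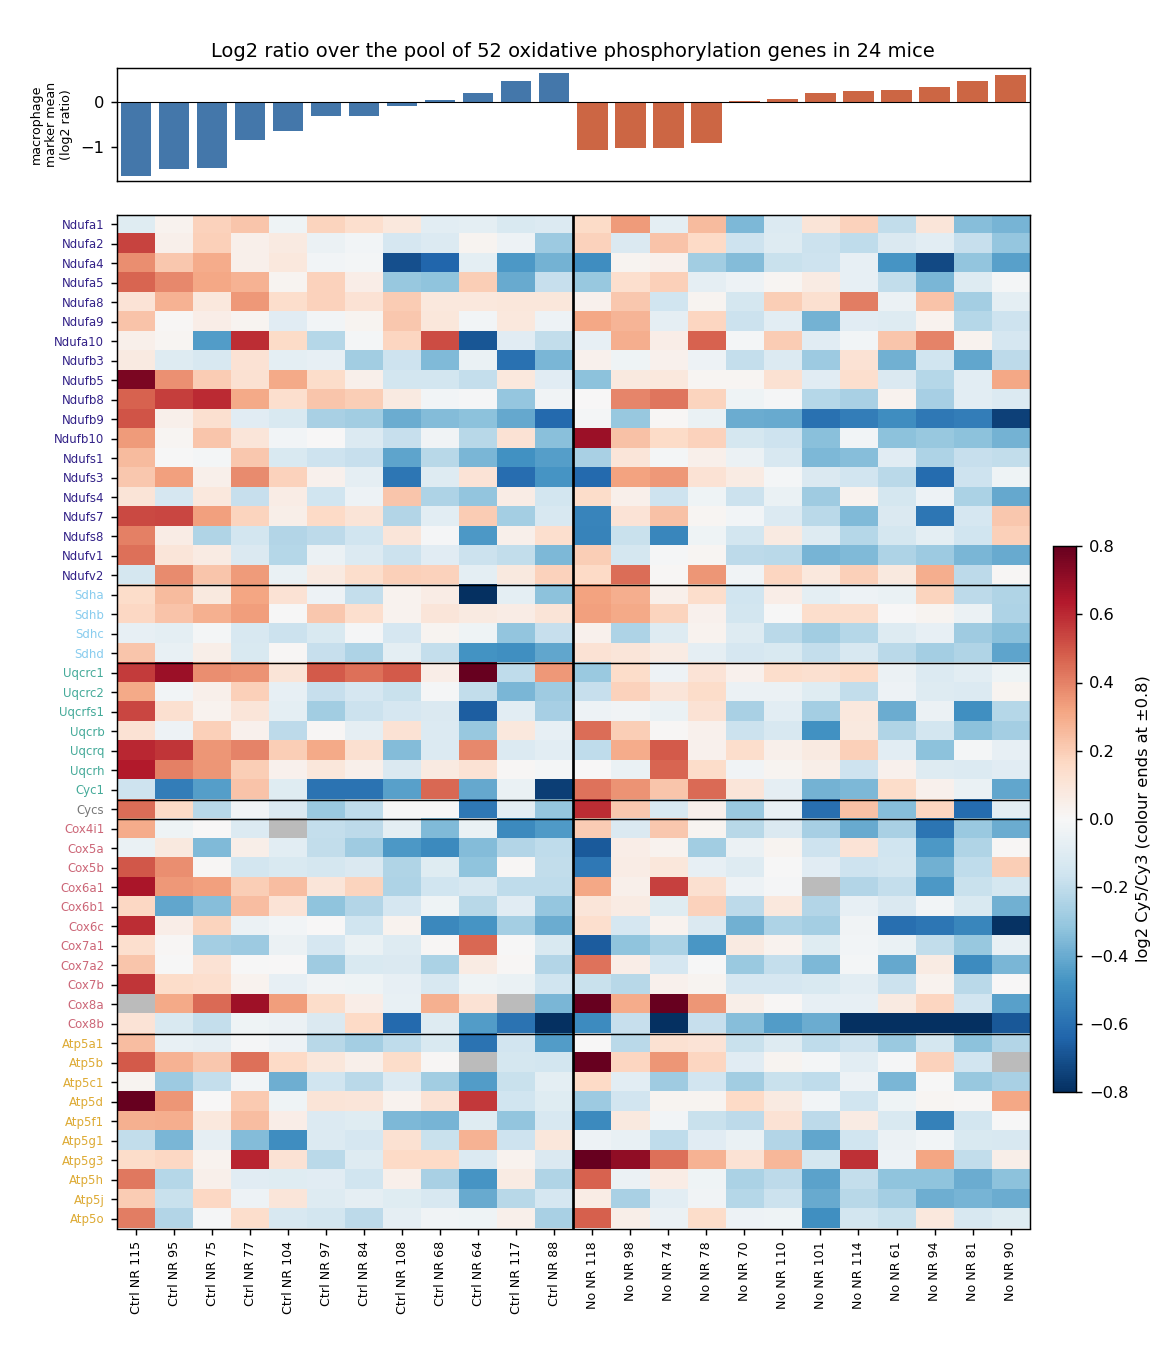
Log2 ratio over the pool (colour, ending at ±0.8; grey marks missing spots) of the 52 genes in 24 mice, with genes grouped by complex and mice ordered within each diet by their macrophage marker mean, which the bars above show. After loess, most rows go from red to blue from left to right within each diet, and with median centring this turns; Cox7a1 and Atp5g1 do not follow it.

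Among themselves, the members varied together across complexes rather than by complex. With diet means removed, the 1326 pairs of members had a median r of 0.35 over 24 mice, and 80.5% of pairs were positive. Pairs within a complex had a median of 0.31 (298 pairs) and pairs between complexes 0.36 (1028 pairs). Complex II had the highest median within a complex, 0.46, over only 6 pairs. A member's correlation with the mean of the other members had a median of 0.61, and 5.47% of the other features had a correlation with the member mean above that. Once the macrophage marker mean was removed as well, the median over pairs was 0.047 and 54.6% were positive. With slide means removed it was 0.40. With Agilent's processed signals it was 0.60 (92.6% of pairs positive), with median centring 0.93, and by the authors' values it was 0.34.

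The closest pair was Ndufa2 with Ndufb9 (r = 0.95), both complex I, followed by Ndufb9 with Ndufv1 (0.93). Ndufa5 with Uqcrq (0.93) and Ndufa4 with Uqcrq (0.92) tied complex I names to complex III, and Ndufs1 with Uqcrc2 (0.92) did so too. Cox7a1 with Sdha (-0.64), Cox7a1 with Uqcrb (-0.61) and Ndufs8 with Cox8a (-0.60) were the most opposed pairs. Against the mean of the other members, Atp5g1 (-0.34), Cox7a1 (-0.33) and Ndufs8 (-0.048) were the 3 negative ones. Uqcrc1 stood at 0.14, and its r with Cyc1 was -0.44. These pairs were picked after their values were seen. Their values are after loess, and with median centring 100% of pairs were positive.

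**Figure D5:**
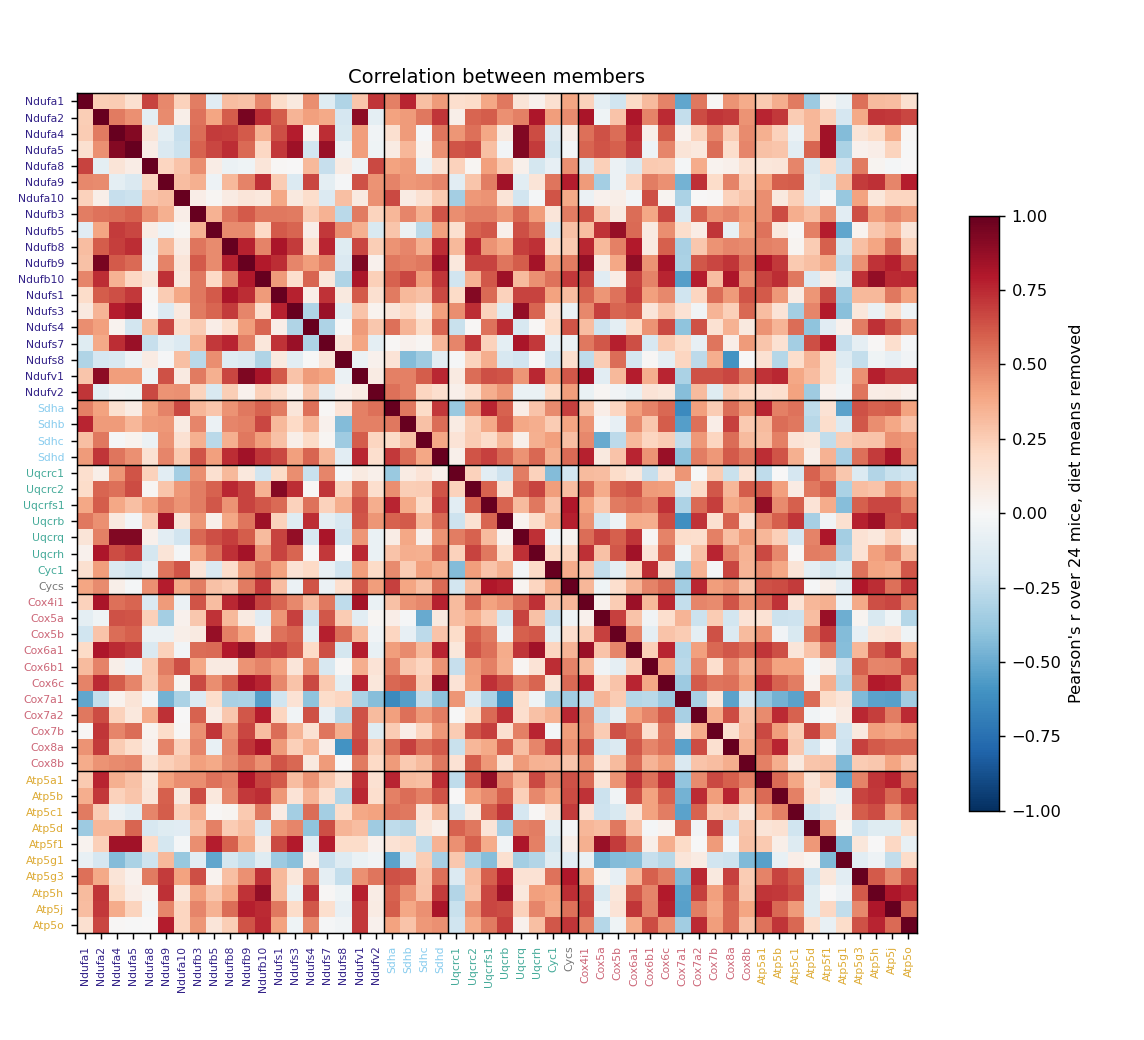
Pearson's r between each pair of members over 24 mice with the diet means removed (colour from -1 to 1); genes are grouped by complex, with lines between complexes. Red fills most of the map, with 80.5% of pairs positive, and the rows of Cox7a1, Atp5g1 and Ndufs8 are mostly blue or pale. Values are after loess, and with median centring 100% of pairs are positive.

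Of 35 further subunit genes 33 were measured, 27 of them lower in No NR mice, and 3 had an unadjusted p under 0.05, all lower (9.09%, beside 14.1% of all features). The lowest p values were those of Ndufa3 (-0.22, SE 0.0888, limma adjusted p = 0.266) and Ndufs6 (-0.24, SE 0.0988, limma adjusted p = 0.278), both accessory subunits of complex I. With the macrophage mean, after loess, 19 of 33 fell (57.6%, beside 10.2% of all features) and 2 rose (16.1% of all features rose). The slopes of this list and of the 2 lists below are given after loess only. With median centring 82.0% of all features rose. The 2 that rose were Cox6a2 at 0.63, the muscle form of that complex IV subunit, and Atpif1 at 0.49, the inhibitor of ATP synthase (limma adjusted p under the threshold for both); they are named because of their direction.

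Assembly factors, which build the complexes and are no part of them, were also counted. Of 45 listed, 41 were measured, 26 of them lower in No NR mice, and 4 had an unadjusted p under 0.05 (9.76%, beside 14.1% of all features), with Taco1, a translational activator of Cox1, at -0.19 (SE 0.0691, limma adjusted p = 0.220) and Acad9, a complex I assembly factor, at 0.20 (SE 0.0810, limma adjusted p = 0.265). With the macrophage mean, after loess, 9 of 41 fell (22.0%, beside 10.2% of all features), and the median slope was -0.076, against -0.18 for the members.

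Of the 12 transcriptional regulators all were measured, 10 were lower in No NR mice, and 3 had an unadjusted p under 0.05, all lower (25.0%, beside 14.1% of all features). These were Esrra, which encodes ERR alpha, at -0.21 (SE 0.0707, limma adjusted p = 0.183), Nrf1 at -0.13 (SE 0.0534, limma adjusted p = 0.285) and the mitochondrial RNA polymerase Polrmt at -0.14 (SE 0.0594). The coactivator genes Ppargc1a and Ppargc1b, known for driving mitochondrial biogenesis, were at -0.0064 and -0.076. With the macrophage mean, after loess, 2 of 12 fell (16.7%, beside 10.2% of all features). They were Esrra at -0.17 (limma adjusted p = 0.00179) and Tfb2m at -0.14 (limma adjusted p = 0.0431). The slopes of Nrf1 (0.021), Gabpa (0.0029) and Ppargc1a (-0.083) did not pass.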

How the data were processed

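Per the labels, 24 mice were hybridised in Cy5 against a common Cy3 pool. Each deposited array file gives linear intensity and flags for every spot; the submitters' processing notes name Agilent Feature Extraction 10.7.3.1. The authors' deposited value table holds log2 values of 26384 features, each column following its own array's Cy5 signal (lowest r 0.990; all medians 8.04), its normalization not given in the sources used here. Median intensities were corrected with normexp (offset 50) and normalized by loess in limma 3.58.1 (R 4.3.3); controls and outlier spots were dropped. A probe was kept when well above background on at least 6 of 12 arrays of a diet (24778 of 55681), and a gene is shown by its brightest probe. Accessions matched 27235 probes to a RefSeq symbol (GRCm38.p6). Diets were compared with lmFit and eBayes, isoform ratios with 100000 permutations. Missing values were filled with the diet mean for means and correlations only. The code was tested on simulated data. Members and lists were chosen with earlier results of these data known. Named in full are the 2 members per complex with the lowest p for diet (1 for cytochrome c), 2 isoform pairs, and the 3 steepest and 3 flattest slopes. P-values measure the spread between these mice, which the labels describe as housed singly.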

Additional observations from a re-analysis of the deposited data

How the results depend on the processing

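Members with an unadjusted p for diet under 0.05 numbered 8 without background correction (15.4%, all features 14.1%), 10 with Agilent processed signals (19.2%, all features 17.4%) and 1 with median centring (1.92%, all features 1.25%). They numbered 9 with Cy5 alone (17.3%, all features 10.8%), 16 in the authors' value table (30.8%, all features 11.9%) and 8 with array weights (15.4%, all features 18.8%). With the mean of all kept probes of a gene they numbered 7 (13.5%, all features 14.3%). With each mouse left out they numbered 3 to 8, where 11.9% to 17.6% of all features met that mark. Members past the adjusted threshold numbered 1 with array weights (Uqcrc1), where 205 of 21056 features passed. With a mouse left out they numbered 0 to 1, and 0 to 227 features passed. The members' median diet difference was -0.25 with median centring. The median slope reversed to 0.411 with median centring, where 52 members passed, and was -0.131 in the authors' value table. Cycs reversed to -0.0496 with Agilent processed signals, -0.154 with median centring, -0.00505 with Cy5 alone, -0.0183 by the authors' values, -0.0295 over all kept probes and -0.00806 with array weights, and ran from -0.0283 to 0.0821 with a mouse left out. Cox5a reversed to -0.124 with median centring. Cox8a was 0.101 with the macrophage mean as a term and ran from -0.0974 to 0.0366 with a mouse left out. The Cox7a1 pair was 0.0237 with median centring and -0.104 to 0.0286 with a mouse left out, and the Cox4i2 pair was 0.121 with median centring. The cause of these moves was not tested. The diet differences of the other members named in full kept their direction and their side of the threshold under all alternatives run, except Uqcrc1 as given above. Their slopes did not all do so, median centring apart. The falling call was lost for Sdhb without background correction, with Cy5 alone, by the authors' values and over all kept probes, for Ndufs7 by the authors' values and without Ctrl NR mouse 115 or 95, for Cycs with Cy5 alone and without Ctrl NR mouse 115 or No NR mouse 118, and for Cox7a2 with Cy5 alone and by the authors' values; the adjusted p of these limma fits ran from 0.0506 to 0.359. A call was gained for Ndufa8 and Sdhc with Agilent processed signals, Cyc1 without Ctrl NR mouse 68 and Cox7a1 without Ctrl NR mouse 115. The uncalled slopes of Atp5d (-0.11 to 0.021), Ndufs8 (-0.030 to 0.12) and Cox5a (-0.099 to 0.0086) changed sign. The members' median pairwise r was 0.60 with Agilent processed signals. Isoform pairs were not run with the intensity trend, array weights or the macrophage term, and Aquantile leaves ratios as they are. No paired analysis was possible because the diets share no animal number. The number of arrays and the signal over background limit what could be detected.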

Other observations

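The genes outside the list whose levels followed the member mean most closely over 24 mice, with diet means removed, were picked after their values were seen. Aldh5a1, an aldehyde dehydrogenase of the mitochondrion, had r = 0.94. Me1 (0.93), the cytosolic malic enzyme that supplies NADPH for fatty acid synthesis, Acaca (0.92), acetyl-CoA carboxylase, and Thrsp (0.91), a protein induced with lipid synthesis, are lipogenic genes. Pygl (0.93), liver glycogen phosphorylase, and Fh1 (0.91), fumarase of the citric acid cycle, were also among the 12 highest. The most opposed named gene was Dennd4b (-0.96), and Cyth4 (-0.95), Arhgap9 (-0.95) and Csf2ra (-0.95), the receptor subunit for GM-CSF, were next. These correlations share the arrays and their normalization with the member mean and carry no test. They are from the loess ratios alone and were not made with median centring, where the members' slope on the macrophage mean turned.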
